A study of Mus musculus with 8 samples.

Results

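Large and small cells of the mouse LSK gate were compared by the forward scatter that the sorter recorded for each cell. The LSK gate is the lineage-negative, Sca1-positive, cKit-positive fraction of bone marrow, which contains the stem cells of the blood and their first progeny. Within each of 4 plates, cells were chosen by their measured forward scatter area (FSC-A): those in the upper tercile are called large here, those in the lower tercile small, and those between them middle. Of 1491 wells with a sort record and a barcode, 1354 had at least 1000 gene counts and 500 genes, and these held 467 large, 425 middle and 462 small cells. Single cells had been index sorted into wells, so that the sorter's values of each cell are known, and libraries were made with CEL-seq2, which counts the 3' end of polyadenylated RNA under a barcode for each well. The series holds 8 plates, of which the 4 labelled LCE enter this contrast.

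All cells of the comparison, large and small, came from bone marrow of mice with the Dach1bio-GFP locus on a C57BL/6 background, in which a biotin tag and an IRES-GFP reporter follow the coding sequence of Dach1. Per the labels the mice were 8 to 16 weeks old and the line goes back to a targeted embryonic stem cell clone, and the labels name no treatment of the animals. Marrow cells had been enriched on beads for CD117 (cKit) before the sort. The labels do not tie plates to animals, so a p-value sets a difference against the variation among plates, and that variation may be technical. Plates 1, 2, 3 and 4 are those labelled LCE409, LCE407, LCE408 and LCE410, and values for the 4 plates are given in that order.

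Forward scatter is the light that a cell bends at a small angle as it passes the laser, and it rises with cell size, though it also depends on shape and refractive index. A cell grows through the cycle and divides at its largest, and total RNA tends to rise with cell volume, so a size contrast compares RNA content and cell cycle at once. Blood stem cells in adult marrow are mostly quiescent and small, and their progeny enlarge as they enter cycle and commit to a lineage.

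The median FSC-A of large cells averaged 157625 over the 4 plates (SD 4956) and that of small cells 118500 (SD 2380), a ratio of 1.33. Since FSC-A chose the arms, this is a description of the rule. On the plates, the smallest FSC-A among large cells was 142000, 143000, 142000 and 142000, and the largest among middle cells was 141000, 142000, 141000 and 141000. The largest FSC-A among small cells was 126000, 127000, 127000 and 126000, against 127000, 128000, 128000 and 127000 for the smallest among middle cells. The recorded values carry 3 significant digits, so cells at these borders differ by the smallest step of the record.

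The kept cells carried RNA of the gate's markers. Kit RNA was counted in 75.7% of the 1354 wells, Cd34 in 84.1%, Ptprc, which encodes CD45, in 62.6% and Ly6a, which encodes Sca1, in 33.2%. Some wells also held RNA of other blood cells: 98 wells had 3 or more counts from 7 B lineage markers, of which 37 were large, 13 middle and 48 small. For 3 plasma cell markers there were 31 such wells (16 large, 7 middle, 8 small) and for 4 macrophage markers 11 (6 large, 5 middle, 0 small). With 10 or more counts of 4 erythroblast markers there were 6 wells (5 large, 1 middle, 0 small), and for 3 platelet markers 3 wells, each large. No well reached the limit for neutrophil or T and NK cell markers, of which Ltf, Cd3e and Ncr1 had no count. Kept counts per plate ranged from 2093860 to 2742061.

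Large cells gave more RNA counts. The median total was 10244.5, 9121, 7846 and 7782 counts per well in large cells on the 4 plates, against 6150.5, 5008, 4613 and 4646.5 in small cells. Every plate had the higher median in large cells, and the lowest large median was above the highest small median. Averaged over plates the median was 8748 ± 1173 counts in large cells and 5105 ± 719.9 in small cells (SD, n = 4 plates), and the ratio on single plates lay between 1.67 and 1.82. The mean log2 ratio was 0.78 ± 0.06 (SD, n = 4). The exact two-sided sign-flip test over plates gave p = 0.13, which is the smallest value that 4 plates allow. Cells of the middle tercile lay between the arms, at 6200 ± 962.9 counts. Without the tenth of wells with the highest ratio of FSC-A to the height of that signal (FSC-H), the mean log2 ratio of large over small cells was 0.64. Across the cells of a plate, Spearman's rho of total counts with FSC-A was 0.617 to 0.715, given as a description, since cells of a plate share a library pool.

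Large cells also showed more genes per well, at 3271 ± 282 against 2371 ± 223.9 in small cells (mean of plate medians, SD, n = 4), with a log2 ratio of 0.47 ± 0.04 and a higher median on 4 of 4 plates. Detected genes follow depth, so every well was also thinned to 2000 counts. Thinned large cells showed 1218 ± 6.46 genes and thinned small cells 1229 ± 7.04, a log2 ratio of -0.013 ± 0.0044 that was lower on 4 of 4 plates. For both values the exact sign-flip test gave p = 0.13, the smallest possible. At equal depth, then, large cells did not show more genes per well. Thinning left out 5 large and 5 small wells with under 2000 counts.

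**Figure D1:**
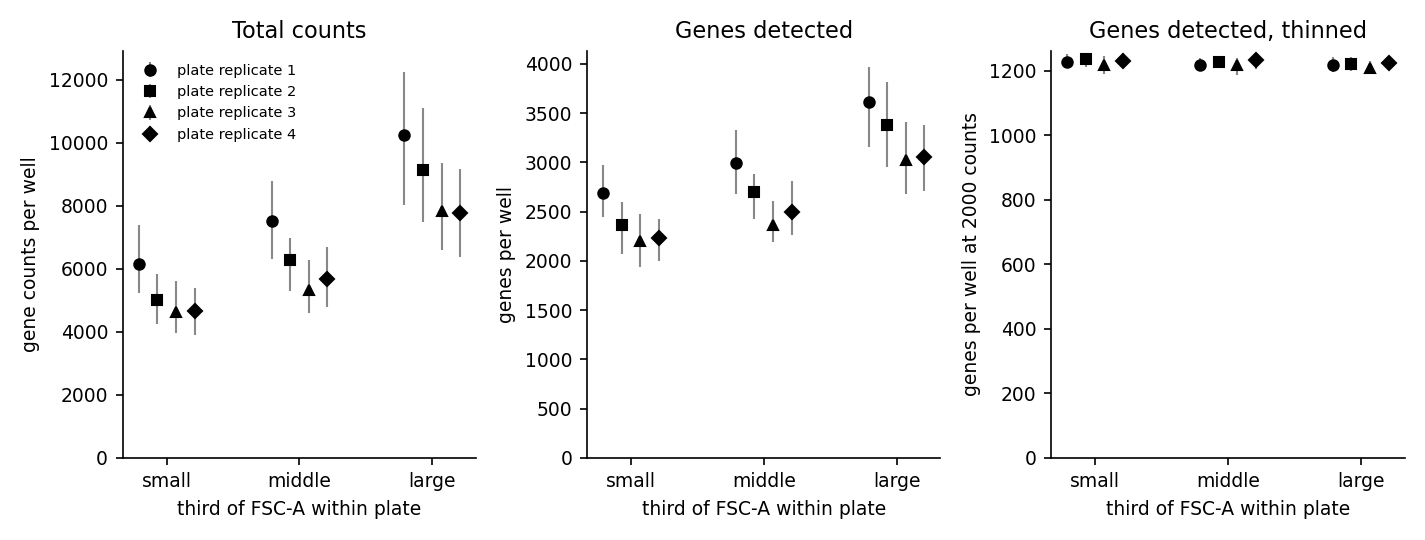
Total counts, detected genes and detected genes after thinning to 2000 counts per well (y axes, linear from 0), for the small, middle and large tercile of FSC-A within each plate (x axis). Each symbol is the median of a plate and the bar its interquartile range over wells; total counts and genes climb from small to large on all 4 plates, while the thinned medians average 1218 genes in large and 1229 in small cells.

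Gene by gene, counts were summed per plate and arm and compared with the plate as a block, so that each gene is set against the total of its arm. Levels are given as CPM, the counts of a gene scaled to a fixed total for the arm. Of 9208 genes tested, 1639 (17.8%) passed an adjusted p of 0.05 in edgeR's quasi-likelihood test with Benjamini-Hochberg adjustment. Of these, 1011 (11%) were higher in large cells and 628 (6.82%) lower. The ranges over plates did not overlap for 576 genes with large cells higher (6.26% of those tested) and for 660 with large cells lower (7.17%). DESeq2 gave 8136 genes an adjusted p and called 461 (5.67%), 356 higher (4.38%) and 105 lower (1.29%); counts of list members by DESeq2 below are out of those with an adjusted p. Per well most genes were higher in large cells. Scaled by the number of wells, all genes shifted by a median of 0.70 on the log2 scale, and 6697 genes were higher (72.7%) and 17 lower (0.185%). All 1011 genes that had a higher share in large cells were also higher per well, and of the 628 with a lower share 159 were higher per well and 17 lower. A value called higher or lower below is relative to the total counts of the arm unless per-well counts are named. In summed counts, more cells with a transcript and more transcript per cell cannot be told apart.

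Many names among the higher genes stand for near-identical copies. Outside the cell cycle lists, 371 of 941 higher genes (39.4%) bear the names of predicted genes or pseudogenes, against 14.3% of all tested genes and 31 of 627 lower genes (4.94%). How counts were shared among such copies is not given in the sources used here, so their values are uncertain.

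The G2 and mitosis and the S phase lists had the highest list medians. On the list for G2 and mitosis, 34 of 35 tested genes were higher in large cells (against 11% of all tested genes) and 0 lower (against 6.82%), with a median log2 difference of 1.46, against -0.02 over all tested genes. On the S phase list 25 of 26 were higher and 0 lower, with a median of 0.99. The genes that did not pass were Aurka, a mitotic kinase, and Chaf1b, a histone chaperone subunit. Per well all 35 and all 26 were higher in large cells, against 72.7% of all tested genes.

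Hmgb2, a DNA-bending protein of chromatin that peaks in G2 and mitosis, had 406, 450, 467 and 430 CPM in large cells on the 4 plates, against 121, 97.9, 163 and 132 CPM in small cells. No plate's small value came near a large one. The log2 difference was 1.83 (SE 0.09, edgeR adjusted p = 8.34e-41), and Hmgb2 was counted in 79.7% of large and 39.2% of small wells. Top2a, the topoisomerase that untangles replicated DNA, had 404, 403, 321 and 339 CPM in large cells, against 187.6, 179, 101 and 188.3 CPM in small cells. Ube2c, a ubiquitin-conjugating enzyme that works with the anaphase-promoting complex, averaged 90.3 ± 13 CPM in large and 25.2 ± 14 CPM in small cells (SD, n = 4). Cks1b, Cks2 and Cdk1, the partners and the kinase of mitotic entry, had log2 differences of 1.65, 1.78 and 1.46.

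Pcna, the sliding clamp of DNA polymerase, had 493, 470, 503 and 484 CPM in large cells, against 279, 301, 260 and 333 CPM in small cells. Its log2 difference was 0.79 (SE 0.07, edgeR adjusted p = 5.7e-19), with no overlap between the arms. Mcm3 and Mcm7, subunits of the replicative helicase, had log2 differences of 1.07 and 0.93, and Lig1, the ligase that joins Okazaki fragments, 1.24. Tyms, which makes thymidylate, averaged 78.4 ± 15 CPM in large and 27.1 ± 5.8 CPM in small cells (SD, n = 4), and Rrm1, a subunit of ribonucleotide reductase, 136 ± 15 and 63.8 ± 21 CPM. Each of these was higher on 4 of 4 plates.

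Of 18 listed replication-dependent histone genes 7 were tested, of which 4 were higher and 1, Hist1h2bc, lower, against 11% and 6.82% of all tested genes. Hist1h2ap had 2325, 3173, 2797 and 3118 CPM in large cells, against 590, 634, 546 and 797 CPM in small cells, a log2 difference of 2.20 (SE 0.05, edgeR adjusted p = 2.45e-80). Outside the lists, 11 of the 12 genes with the largest positive differences were further H2A histone genes or predicted genes: Hist1h2ai (3.01), Hist1h2af (2.97), Hist1h2ad (2.80), Hist1h2aj (2.77), Gm15428 (2.55), Hist1h2ao (2.53), Hist1h2an (2.53), Gm11336 (2.51), Hist1h2ag (2.49), Hist1h2ak (2.48) and Hist1h2ah (2.48). The H2A genes are near copies of each other and could share counts. The other gene was Mxd3, a Myc antagonist of the Mad family known for its rise in S phase. Mxd3 was sparse, with 13.4, 14.7, 19.2 and 15.6 CPM in large cells, against 4.05, 0, 5.42 and 0 CPM in small cells, where a count of 0 allows up to 5.15 and 5.48 CPM on plates 2 and 4.

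Of 16 tested regulators of G1, 7 were higher and 0 lower, against 11% and 6.82% of all tested genes, with a median of 0.37. DESeq2 called 1 of 15 higher. Ccne2, the cyclin that starts S phase, averaged 22.5 ± 3.3 CPM in large and 7.37 ± 1.5 CPM in small cells (SD, n = 4). Cdk4 and Cdk6, the kinases of early G1, differed less, by 0.40 and 0.20 on the log2 scale, and their ranges over plates overlapped. Cdkn1b, the p27 inhibitor that holds cells out of cycle, had a log2 difference of -0.33 and did not pass.

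The promoters below belong to the genes with the smallest p on the G2 and mitosis, S phase and ribosome biogenesis lists and to the gene with the largest negative difference outside them. They are shown to set the promoter of a cell cycle gene beside those of the other groups. The sequences are RefSeq's for GRCm38.p6, from 250 bases before to 50 after the start, 5′ to 3′ on the gene's strand. Hmgb2 is at chr8:57511593-57511892 (+), Pcna at chr2:132253131-132253430 (-), Nop56 at chr2:130274162-130274461 (+) and Bank1 at chr3:136326017-136326316 (-). Capitals mark matches, on either strand, to the CHR element TTTGAA, the CCAAT box CCAAT, an E2F core GCGGGAA and the E-box CACGTG, none of which overlap here.
Hmgb2: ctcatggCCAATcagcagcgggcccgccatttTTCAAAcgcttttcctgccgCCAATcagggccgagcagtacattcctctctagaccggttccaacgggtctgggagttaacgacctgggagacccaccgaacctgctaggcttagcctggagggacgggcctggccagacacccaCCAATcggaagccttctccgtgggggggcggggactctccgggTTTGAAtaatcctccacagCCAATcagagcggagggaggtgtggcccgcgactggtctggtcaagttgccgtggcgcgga
Pcna: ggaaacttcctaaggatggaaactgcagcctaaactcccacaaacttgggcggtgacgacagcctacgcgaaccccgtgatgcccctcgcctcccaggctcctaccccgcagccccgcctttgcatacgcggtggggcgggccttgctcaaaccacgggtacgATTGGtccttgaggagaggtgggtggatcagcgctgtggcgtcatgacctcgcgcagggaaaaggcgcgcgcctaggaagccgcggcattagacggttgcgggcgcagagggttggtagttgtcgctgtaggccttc
Nop56: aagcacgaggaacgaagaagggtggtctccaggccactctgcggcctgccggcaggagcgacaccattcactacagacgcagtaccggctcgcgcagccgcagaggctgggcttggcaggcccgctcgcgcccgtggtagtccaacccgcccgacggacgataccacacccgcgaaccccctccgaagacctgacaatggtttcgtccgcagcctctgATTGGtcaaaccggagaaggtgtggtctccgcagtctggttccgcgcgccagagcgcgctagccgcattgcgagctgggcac
Bank1: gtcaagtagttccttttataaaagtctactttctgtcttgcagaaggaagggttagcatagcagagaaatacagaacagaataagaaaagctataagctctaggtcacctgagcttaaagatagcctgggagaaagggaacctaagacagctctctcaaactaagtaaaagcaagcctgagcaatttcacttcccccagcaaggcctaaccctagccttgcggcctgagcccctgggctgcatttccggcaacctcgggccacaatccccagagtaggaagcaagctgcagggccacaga

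The Hmgb2 window held 2 CHR matches, 30 and 218 bases before the start, and 4 CCAAT matches, the nearest 11 bases before it. The Pcna window and the Nop56 window held 1 CCAAT match each, on the opposite strand, and the Bank1 window held no match to the 4 motifs. Of the 30 G2 and mitosis genes with a promoter in the table, 23 (76.7%) held a CHR match and 27 (90.0%) a CCAAT match, against 12.2% and 38.9% of the 6371 tested genes with a promoter and 18.1% and 37.9% of all 27025 genes in the table. Of 22 S phase genes, 11 held the E2F core, against 9.53% of the tested genes and 4.66% of all genes. The E-box was in 8 of 40 ribosome biogenesis promoters (20%), against 11.2% of the tested genes and 7.24% of all genes. These are matches of letters in a window, not sites shown to be bound.

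**Figure D2:**
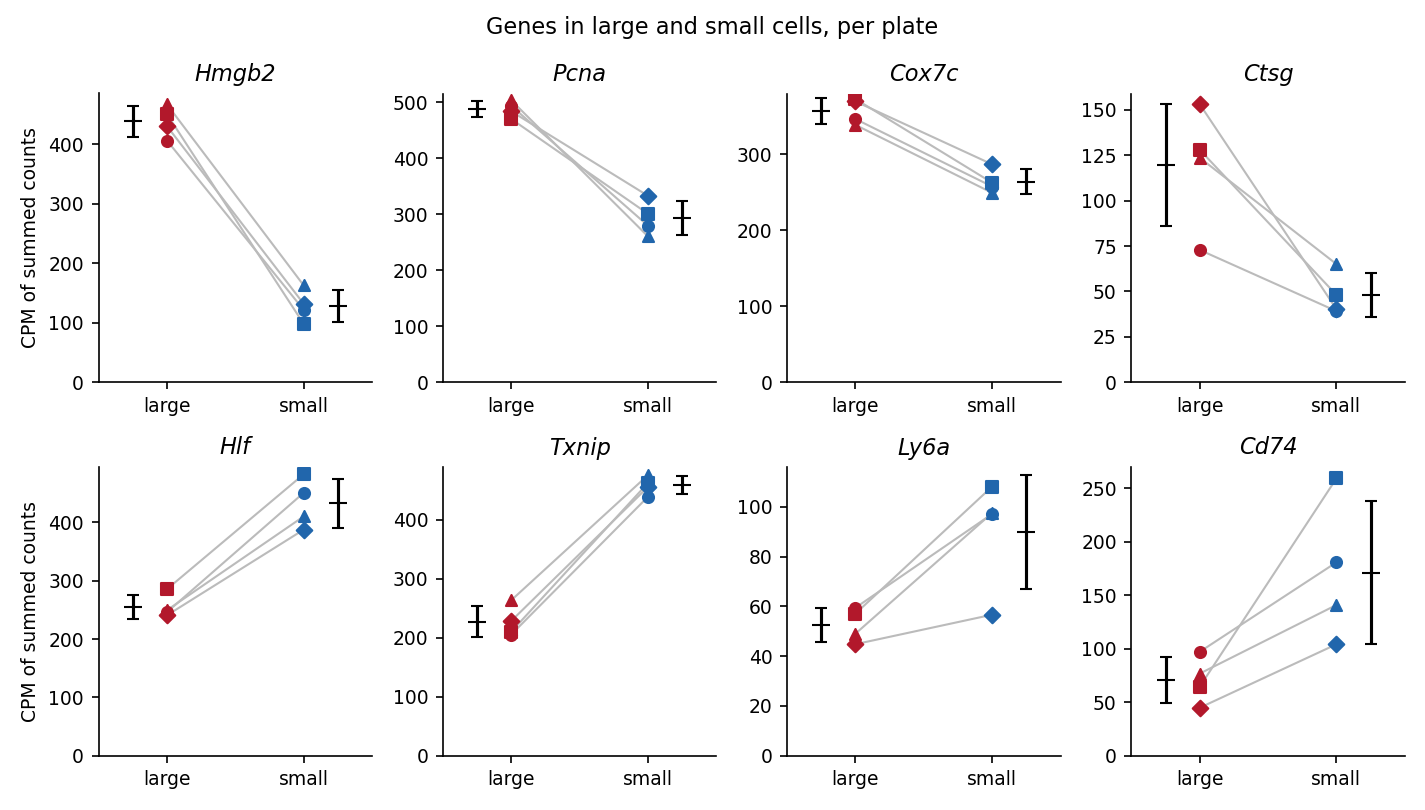
CPM of summed counts (y axes, linear from 0) of 8 genes in large and small cells (x axis), with lines joining the arms of a plate and a symbol shape for each plate (circle 1, square 2, triangle 3, diamond 4). Bars at the sides give the mean and SD over 4 plates; Hmgb2, Pcna, Cox7c and Ctsg were higher in large cells on every plate, and Hlf, Txnip, Ly6a and Cd74 lower on every plate.

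Outside the cell cycle lists, genes that make nucleotides had the highest median, 0.52. Of 24 tested, 16 were higher in large cells (against 11% of all tested genes) and 0 lower, and DESeq2 called 6 of 24 higher. Part of this list serves DNA synthesis: Tk1, thymidine kinase, had 74.5, 87.5, 103 and 90.7 CPM in large cells, against 29.7, 32.6, 23.5 and 36.6 CPM in small cells, and Dut, which keeps uracil out of DNA, averaged 179 ± 8.3 and 84.5 ± 21 CPM (SD, n = 4). Others serve RNA as well: Impdh2, the rate-limiting enzyme of guanine nucleotide synthesis, had 121, 131, 160 and 137 CPM in large cells, against 91.8, 91.0, 70.5 and 95.1 CPM in small cells. Its log2 difference was 0.69 (SE 0.12, edgeR adjusted p = 5.4e-06), and the arms did not overlap. Cad and Mthfd1, enzymes of pyrimidine and one-carbon metabolism, had log2 differences of 0.78 and 0.93.

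Of 36 tested nuclear genes of the respiratory chain, 16 were higher (against 11% of all tested genes) and 0 lower, with a median of 0.29. By DESeq2 6 of 36 were higher. Atp5g1, a subunit of the ATP synthase ring, had 143, 162, 175 and 174 CPM in large cells, against 79.6, 82.4, 97.6 and 89.6 CPM in small cells, a log2 difference of 0.95 (SE 0.12, edgeR adjusted p = 3.39e-11). Cox7c, a subunit of cytochrome c oxidase, had 347, 373, 339 and 370 CPM in large cells, against 258, 263, 249 and 287 CPM in small cells. For both genes every large value was above every small one. Cox5a and Ndufa4, also of the respiratory chain, had log2 differences of 0.62 and 0.57.

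Transcripts made in the mitochondrion itself went the other way. They took 3.93%, 3.71%, 4.01% and 3.75% of the counts of large cells on the 4 plates, against 4.58%, 4.54%, 4.77% and 4.35% in small cells. The arms did not overlap, and the difference averaged -0.71 ± 0.10 percentage points (SD, n = 4, exact sign-flip p = 0.13, the smallest possible). The middle tercile took 4.28%. Of 18 tested mitochondrially encoded genes 7 were lower (against 6.82% of all tested genes) and 1, mt-Nd3, higher, and per well all 18 were higher, against 72.7% of all tested genes. mt-Rnr2, the large ribosomal RNA of the mitochondrion, averaged 99.2 counts per well in large and 76.5 in small cells, and its log2 difference was -0.34 by share (SE 0.03, edgeR adjusted p = 1.32e-21) and 0.38 per well.

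The cytosolic ribosomal proteins together kept nearly the same share: 10.5% ± 0.102 of counts in large cells and 10.4% ± 0.0597 in small cells (SD, n = 4), higher on 3 of 4 plates with an exact sign-flip p of 0.25. Within the group genes differed. Of 85 tested, 27 were higher and 4 lower, against 11% and 6.82% of all tested genes, with a median of 0.09, and DESeq2 called 8 higher and 2 lower. Rpl41 had 2154, 2086, 2128 and 2136 CPM in large cells, against 1541, 1630, 1800 and 1713 CPM in small cells, and Rpl4 had 2839, 2886, 3027 and 2951 CPM in large cells, against 3369, 3579, 3828 and 3693 CPM in small cells. Neither gene's arms overlapped, and per well both were higher in large cells, by 1.13 and 0.47 on the log2 scale. Ribosomal protein genes have many processed pseudogenes, so their counts are uncertain.

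Machinery for making ribosomes and proteins differed little in share. Of 45 tested genes of ribosome biogenesis 7 were higher and 0 lower, where 11% of all tested genes were higher, with a median of 0.16. Nop56, a core protein of the box C/D particles that guide rRNA methylation, had 215, 234, 175 and 198 CPM in large cells, against 161, 149, 145 and 168 CPM in small cells, a log2 difference of 0.45 (SE 0.10, edgeR adjusted p = 0.000143). Nhp2 and Ddx21, of the box H/ACA particles and of rRNA synthesis, had log2 differences of 0.60 and 0.46. Of 23 translation factors 6 were higher and 1 lower, among them Eif4a1, the RNA helicase of cap-dependent initiation, at 375 ± 36 CPM in large and 288 ± 29 CPM in small cells (SD, n = 4), and of 20 aminoacyl-tRNA synthetases 0 passed in edgeR, with 3 under an unadjusted p of 0.05 and 0 by DESeq2. Of 27 proteasome genes 7 were higher and 0 lower. DESeq2 called 0 of 44 ribosome biogenesis and 0 of 27 proteasome genes, and 2 of 23 translation factors higher. Per well every tested member of these 4 lists was higher in large cells, where all genes shifted by a median of 0.70 and 72.7% of those tested were higher.

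Chaperonin and HSP90 genes were higher for 7 of 22 members and lower for 0, with a median of 0.24, where 11% of all tested genes were higher and 6.82% lower. By DESeq2 2 of 22 were higher. Hspd1, the mitochondrial chaperonin, had 204, 218, 185 and 158 CPM in large cells, against 171, 115, 141 and 119 CPM in small cells, so that it was higher on each plate though the ranges overlapped. Of 16 glycolysis genes 6 were higher and 1 lower (1 and 0 by DESeq2): Gapdh, the central dehydrogenase, averaged 205 ± 35 CPM in large and 141 ± 13 CPM in small cells, and Slc2a3, a glucose transporter, 22.6 ± 6.4 and 42.4 ± 16 CPM (SD, n = 4). Without plate 4 Slc2a3 no longer passed (log2 difference -0.59, edgeR adjusted p = 0.126). Among 12 cholesterol genes 0 were higher and 1 lower, Srebf2, the master regulator of sterol synthesis, with a log2 difference of -0.54. Of 25 actin genes 2 were higher and 2 lower, shares near those of all tested genes.

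The Myc family had members on both sides. Myc had a log2 difference of 0.25 and did not pass (edgeR adjusted p = 0.0567). Mycn, which is known in blood stem cells, had 51.9, 24.9, 42.6 and 34.4 CPM in large cells, against 67.5, 75.6, 94.0 and 82.3 CPM in small cells, a log2 difference of -0.97 (SE 0.17, edgeR adjusted p = 1.67e-06). Mxd4, an antagonist of Myc, was lower by share (-0.45), a call lost without plate 2 or plate 4, and had a difference of 0.27 per well that did not pass.

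**Figure D3:**
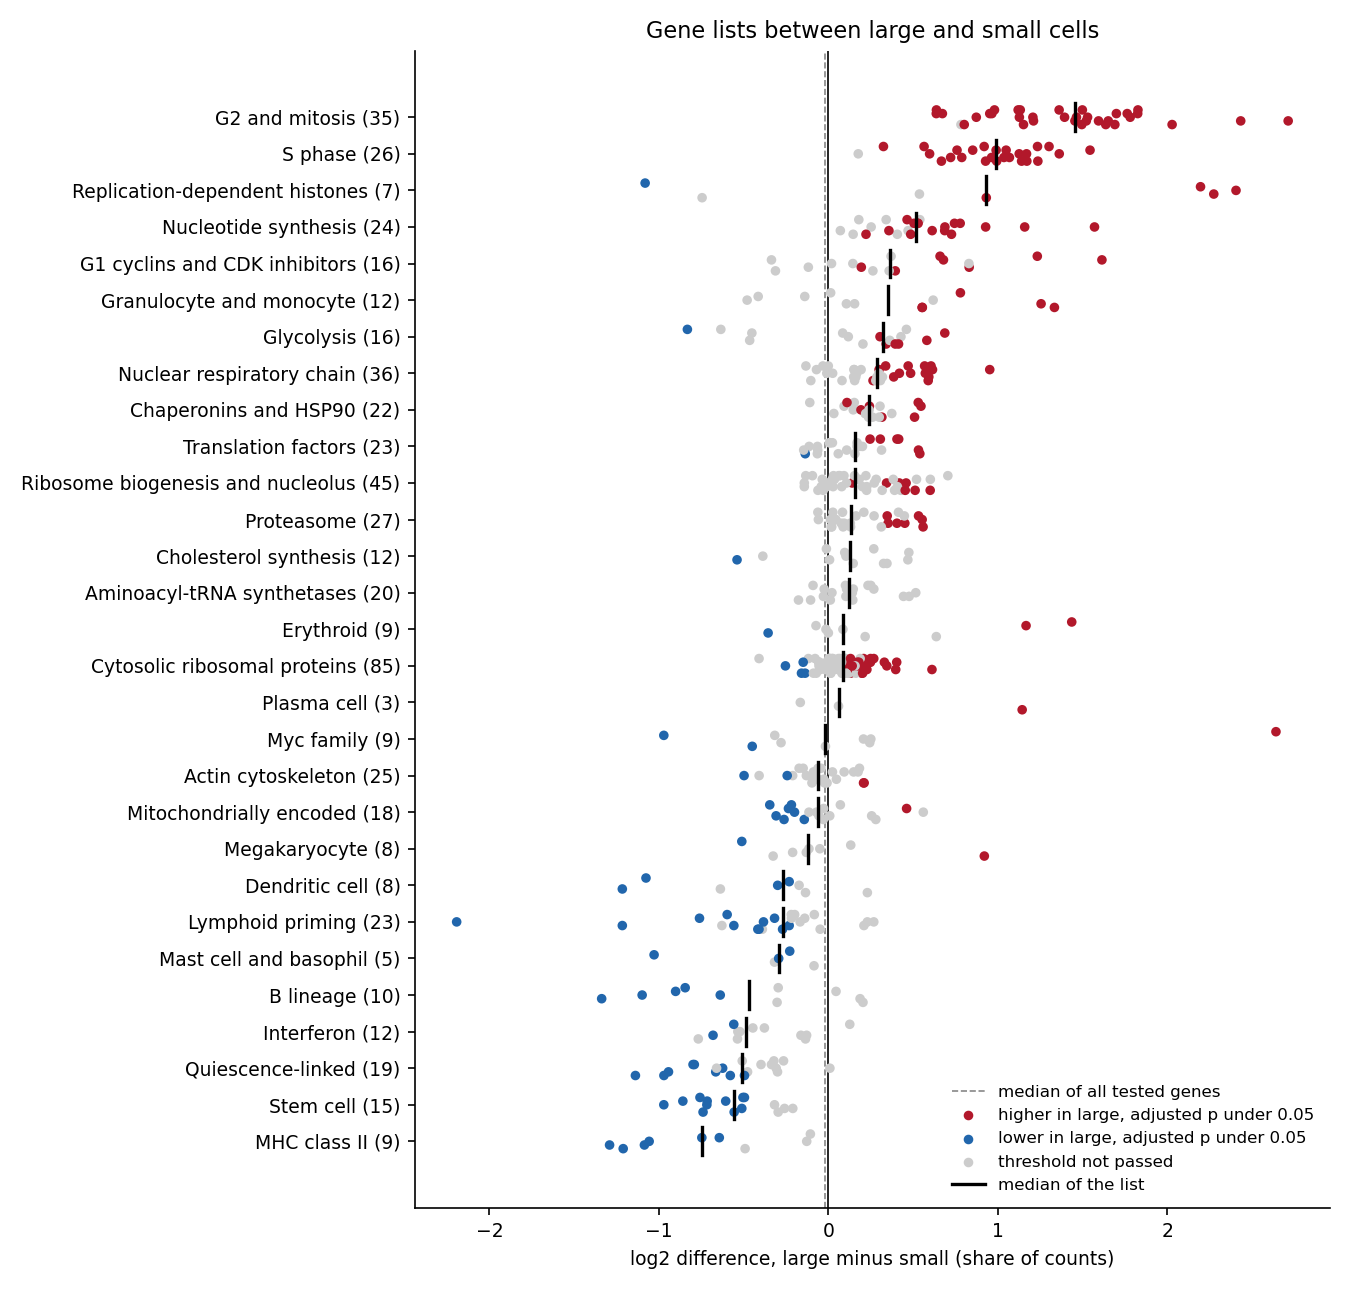
Log2 difference of large minus small cells (x axis, relative to the arm's total counts) for the tested genes of the lists with at least 3 tested members (y axis, number tested in parentheses). Each point is a gene, red or blue where it passed an adjusted p of 0.05 and grey where it did not, and black bars are list medians; the medians run from 1.46 for G2 and mitosis down to -0.75 for MHC class II.

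Most tested genes tied to stem cells were lower in large cells. Of 15 tested, 11 were lower and 0 higher, with a median of -0.56 (6.82% of all tested genes were lower). DESeq2 called 4 of 15 lower, and among cells of like total counts, described further on, 0 of 15 passed. Meis1, Hoxa9, Mecom and Mllt3, regulators of stem cell self-renewal, had log2 differences of -0.50, -0.49, -0.61 and -0.74. Hlf, another such factor, had 246, 286, 249 and 241 CPM in large cells, against 451, 483, 410 and 388 CPM in small cells. The arms were far apart, and the log2 difference was -0.71 (SE 0.07, edgeR adjusted p = 8.83e-16). Per well Hlf did not pass: it averaged 2.29 counts per well in large and 2.27 in small cells, 0.01 on the log2 scale (SE 0.08, edgeR adjusted p = 0.89). Per well 4 of the 15 stem cell genes were higher and 0 lower. The summed share of the list ran from 2003 to 2069 CPM in small cells, 1740 to 2087 CPM in the middle tercile and 1335 to 1399 CPM in large cells.

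Of 19 tested genes linked to quiescence 9 were lower (against 6.82% of all tested genes), 0 higher and 10 did not pass, with a median of -0.51. DESeq2 called 4 of 18 lower. Txnip, which restrains glucose uptake and is high in resting cells, had 205, 210, 263 and 228 CPM in large cells, against 439, 462, 475 and 455 CPM in small cells. It was counted in 82.2% of large and 84.8% of small wells. Its log2 difference was -0.97 (SE 0.07, edgeR adjusted p = 7.04e-24), and it was among the 17 genes lower per well too, at 2.01 counts in large and 2.39 in small cells (log2 -0.25, edgeR adjusted p = 0.00537). Pik3ip1, an inhibitor of PI3 kinase, averaged 47.3 ± 3.7 CPM in large and 95.2 ± 6.5 CPM in small cells (SD, n = 4), and Btg1, an antiproliferative factor, 25.6 ± 6.7 and 58.8 ± 28 CPM. Per well 2 of the 19 were higher and 1 lower.

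Of 23 tested genes of lymphoid priming, 11 were lower (against 6.82% of all tested genes) and 0 higher, with a median of -0.27. By DESeq2 5 of 22 were lower, and without wells rich in RNA of other cells, described with the MHC class II genes, 7 of 20, with a median of -0.20. The list also holds Ighm and Ighd, heavy chain genes of B cells. Bcl11a, a transcription factor that lymphoid progenitors need, had 310, 242, 310 and 252 CPM in large cells, against 378, 381, 445 and 344 CPM in small cells, a log2 difference of -0.42 by share that turned to 0.30 per well. Ccr9, the chemokine receptor that guides progenitors to the thymus, had 18.4, 28.6, 27.7 and 13.5 CPM in large cells, against 47.2, 51.5, 63.3 and 51.2 CPM in small cells, and was lower per well too (-0.49). Dntt, which adds bases at antigen receptor joints, and Il7r did not pass, at -0.20 and -0.63. Per well 15 of the 23 were higher and 2 lower.

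Among the largest negative differences were genes of mature B cells. Bank1, a scaffold of B cell receptor signalling, had 3.35, 0.921, 1.07 and 2.08 CPM in large cells, against 28.3, 17.2, 14.5 and 16.5 CPM in small cells, a log2 difference of -3.21 (SE 0.49, edgeR adjusted p = 6.01e-08). Ighd, the IgD heavy chain, had 10.05, 8.29, 8.53 and 7.29 CPM in large cells, against 54.0, 49.8, 28.9 and 29.2 CPM in small cells. They were counted in 1.5% and 5.57% of large wells, against 7.14% and 13.6% of small wells, and both were lower per well. Tnfrsf13c, the BAFF receptor, had a log2 difference of -1.43, and Iglc3, a light chain segment that could share counts with its neighbours, -1.72. Of 10 tested B lineage genes 5 were lower (against 6.82% of all tested genes) and 0 higher, and Pax5, Cd79a, Cd79b and Ebf1 were among the lower. DESeq2 called 0 of 9 lower. Pax5 lost its call without plate 1 (-0.93) or plate 3 (-0.88). Vpreb1 and Igll1, the surrogate light chain of large pre-B cells, had differences of 0.05 and 0.19 that did not pass. The summed B lineage list was 245 to 676 CPM in large cells, against 481 to 745 CPM in small cells, and the 7 markers used to find B lineage wells summed to 109 to 284 CPM, against 216 to 327 CPM in small cells.

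MHC class II genes, which present antigen on B cells and dendritic cells, had the lowest list median, -0.75. Of 9 tested, 6 were lower (against 6.82% of all tested genes) and 0 higher, and DESeq2 called 3 of 8 lower. Cd74, the invariant chain, had 97.1, 64.5, 76.7 and 44.8 CPM in large cells, against 181, 259, 141 and 104 CPM in small cells. Its log2 difference was -1.21 (SE 0.13, edgeR adjusted p = 1.74e-14), and 6.66% of its counts lay in a single well. Without the 137 wells rich in RNA of other cells, 59 of them large and 53 small, Cd74 had a difference of -0.28 and did not pass (edgeR adjusted p = 0.25), and H2-Aa, a class II alpha chain, had -0.15. Of 8 class II genes tested there, 1 was lower and 0 higher. Over all genes 1348 of 8712 (15.5%) passed in these wells, 853 higher (9.79%) and 495 lower (5.68%). Bank1, Ighd, Iglc3, Pax5 and Ebf1 were too sparse to test there, and Cd79b had -0.23 and did not pass. Cd79b, Pax5 and Ebf1 are among the B lineage markers whose counts chose the wells left out. The value of Cd79b there thus describes that choice. In 5 of 6 class II promoters in the RefSeq table the CCAAT box was found, against 38.9% of tested genes.

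Some of the other large negative differences also passed without those wells. Gimap5 and Gimap8, GTPases of lymphocyte survival, had log2 differences of -1.44 and -1.45 over all wells and of -1.33 and -1.18 without wells rich in RNA of other cells. Tcp11l2 had 21.8, 16.6, 13.9 and 15.6 CPM in large cells, against 47.2, 48.1, 54.2 and 64.0 CPM in small cells, and Kdm7a, a histone demethylase, 14.2, 9.21, 25.6 and 17.7 CPM, against 51.3, 51.5, 50.6 and 43.9 CPM in small cells. Both were lower on each plate without overlap and lower per well, and without those wells their differences were -1.61 and -1.52. Ltb, lymphotoxin beta, named here after its values were seen, averaged 44.3 CPM in large and 111 CPM in small cells, with log2 differences of -1.27 over all wells and -1.12 without those wells. The rest of the 12 largest were Gm14302 (-1.56), which had -1.66 without those wells, and Ttc39b (-1.56), Gria2 (-1.54) and Gm21811 (-1.39), which like Tnfrsf13c were too sparse to test there. Gria2 lost its call without plate 1, 2 or 3, at -1.42, -1.25 and -1.23.

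Interferon-response genes were lower for 2 of 12 tested members and higher for 0, with a median of -0.48, where 6.82% of all tested genes were lower. DESeq2 called 0 of 8, and 0 of 11 passed among cells of like total counts. Ddx58, an RNA sensor, had a log2 difference of -0.68. It did not pass without plate 3 (-0.46) or without plate 4 (-0.62), and per well it had a difference of 0.03 that did not pass.

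Of 12 tested genes of the granulocyte and monocyte path 5 were higher in large cells (against 11% of all tested genes), 0 lower and 7 did not pass, with a median of 0.35. The 5 were Ctsg, Mpo, Elane, Nkg7, a granule protein of cytotoxic cells, and Calr, a chaperone of the endoplasmic reticulum. Ctsg, cathepsin G of neutrophil granules, had 72.9, 128, 124 and 153 CPM in large cells, against 39.1, 48.1, 65.1 and 40.2 CPM in small cells, a log2 difference of 1.34 (SE 0.15, edgeR adjusted p = 7.21e-13). It was counted in 36.0% of large and 19.7% of small wells. Mpo, myeloperoxidase, averaged 262 ± 77 CPM in large and 156 ± 37 CPM in small cells (SD, n = 4), higher on each plate with overlapping ranges. Elane, neutrophil elastase, had 58.0, 176 and 101 CPM in large cells on plates 2, 3 and 4, against 17.2, 92.2 and 38.4 CPM in small cells. On plate 1 Elane had no count in either arm, and 21.1% of its counts lay in a single well. A gene not listed for a plate also entered as 0, so whether this 0 was measured is not known. If measured, it allows up to 2.51 CPM in large and 4.05 CPM in small cells. Without the tenth of wells with the highest ratio of FSC-A to FSC-H, Elane had a difference of -0.16 and did not pass. Prtn3, Lyz2, Csf3r and Cebpa, also of this path, did not pass, nor did Clec12a (0.62), Gfi1 (-0.48) and Csf2ra (-0.41). Without wells rich in RNA of other cells 6 of 12 were higher and 1 lower, against 9.79% and 5.68% of genes tested there.

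Erythroid, platelet and plasma cell transcripts rested on few wells. Hba-a2, an alpha globin whose copies could share counts, had 27.6, 8.29, 132 and 18.8 CPM in large cells, against 17.5, 22.3, 16.3 and 7.31 CPM in small cells, and 48.4% of its counts lay in a single well. Its log2 difference was 1.44, and without plate 3 it did not pass (0.27, edgeR adjusted p = 0.71). Hba-a1 also lost its call without plate 3 (0.06). Jchain, of plasma cells, had 97.1 and 137 CPM in large cells on plates 1 and 2, against 47.2 and 61.8 CPM in small cells. It had no count in either arm on plate 3, which, if that 0 was measured, allows up to 3.20 CPM in large and 5.42 CPM in small cells. Its difference was 1.14, with 33.8% of its counts in a single well, and that of Pf4, of platelets, was 0.92. The 4 erythroblast markers summed to 51.1 to 459 CPM in large cells, against 32.9 to 145 CPM in small cells, and the 3 platelet markers to 18.8 to 61.1 CPM, against 18.1 to 39.5 CPM. Without wells rich in RNA of other cells, Hba-a2, Jchain and Pf4 had -0.53, -0.62 and 0.01 and did not pass. Hba-a2, Jchain and Pf4 are themselves among the markers whose counts chose the wells left out, so these values describe that choice. Car2, carbonic anhydrase, was lower by share (-0.35) and higher per well (0.36). Of 5 tested mast cell and basophil genes 3 were lower (against 6.82% of all tested genes) and 0 higher, and DESeq2 called 1 of 5 lower. The 3 were Slc18a2, Srgn and Kit, which is also a marker of the gate, while Cpa3 (-0.08) and Gata2 (-0.32) did not pass.

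The proteins the sorter stained were mostly brighter on large cells. The median CD48 signal was 1.74 times higher on average, at 5845 in large and 3369 in small cells (mean of plate medians on the sorter's scale). CD150, CD135, cKit, CD16/32, CD11b, PIR-A, IL7R, GFP from the Dach1 locus and propidium iodide were each brighter in large cells on 4 of 4 plates, with mean ratios from 1.16 to 1.45. Side scatter was 1.44 times higher. Sca1 was the exception, brighter in large cells on 1 of 4 plates, with a mean ratio of 0.96. Channels read from a cell share its light path and autofluorescence, so these values are a description with no test.

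**Figure D4:**
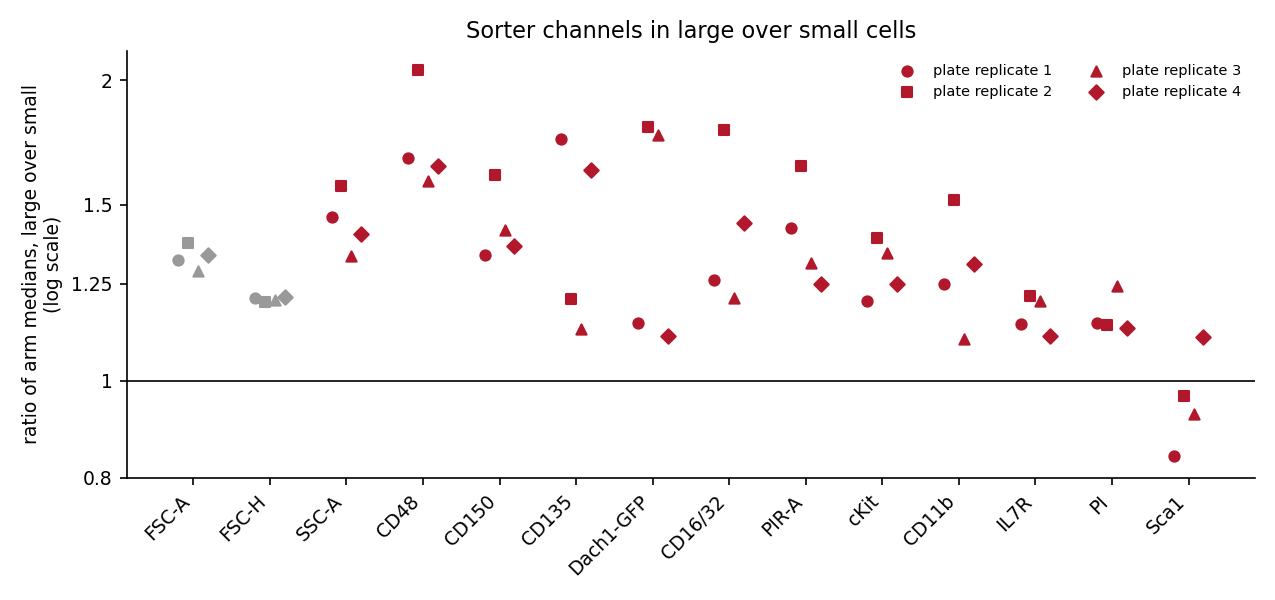
Ratio of the median signal of large over small cells (y axis, log scale) for 14 sorter channels (x axis), with a symbol for each plate. Grey marks forward scatter, which chose the arms; CD48 has the highest mean ratio, 1.74, with 1.59 to 2.05 on single plates, and Sca1 lies below 1 on 3 plates.

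The RNA of the stained proteins did not follow the stains alike. Cd48 RNA was higher in large cells, at 136, 118, 116 and 120 CPM, against 82.3, 87.6, 77.7 and 102 CPM in small cells, a log2 difference of 0.55 (SE 0.13, edgeR adjusted p = 0.000441). Ly6a, which encodes Sca1, had 59.5, 57.1, 49.0 and 44.8 CPM in large cells, against 97.2, 108, 97.6 and 56.7 CPM in small cells, lower on each plate (-0.72), and did not pass per well (0.01). Kit and Flt3, the cKit and CD135 genes, were lower by share (-0.29 and -0.23) while higher per well (0.43 and 0.49). The share calls of Kit and Flt3 were lost without some plates: Kit had -0.27 and -0.25 without plates 1 and 3, and Flt3 -0.26, -0.18 and -0.16 without plates 1, 2 and 3. Dach1 RNA was near the detection limit, at 17.3 ± 2.2 CPM in large and 18.9 ± 11 CPM in small cells (SD, n = 4). It did not pass by share (-0.07, edgeR adjusted p = 0.899), and it was higher per well (0.64, edgeR adjusted p = 0.0412). Il7r and Itgam, which encodes CD11b, did not pass by either scale. Split at each plate's median of CD135, the size difference itself differed between the brighter and the dimmer cells for 15 of 7223 genes (0.208%), with a positive difference of CD135-high minus CD135-low cells for 11 (0.152%) and a negative one for 4 (0.0554%). Among the 11 were MHC class II genes such as Cd74, whose size difference was -0.22 among CD135-high cells and -1.80 among CD135-low cells. Wells rich in RNA of other cells were part of this split.

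How much of the contrast belongs to cells in cycle was described by the share of counts from the S phase, G2 and mitosis and histone lists. That share was 0.429% ± 0.0529 in small cells, 0.453% ± 0.0507 in the middle tercile and 1.09% ± 0.0599 in large cells (SD, n = 4). Of large wells, 74.6% to 78.4% were above their plate's median share, against 36.5% to 37.7% of small wells.

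The size contrast was then formed anew among the 678 wells at or below their plate's median share, here called low-cycling. The median FSC-A of its arms was 140000, 142000, 141500 and 140000 in large cells, against 116000, 120000, 117000 and 114000 in small cells, a smaller gap than over all wells. Total counts still differed, with plate medians of 7525, 6429, 5503 and 5763 in large cells, against 6282, 4933, 4562 and 4553.5 in small cells, higher in large cells on each plate. The mean log2 ratio was 0.31, against 0.78 over all wells. Of 5390 genes tested, 22 (0.408%) passed, 17 higher (0.315%) and 5 lower (0.0928%) in edgeR, and 501 had an unadjusted p under 0.05. Without plates 1, 2 and 3 in turn 11, 5 and 6 genes passed. These wells are fewer and are part of those of the first contrast, so the counts are not independent of it and a gene that did not pass is not shown to be equal.

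The 5 genes lower in large low-cycling cells were Ebf1 (-1.46), Cd79b (-1.11), Ltb (-0.75), Txnip (-0.37) and mt-Rnr2 (-0.14). Among the 17 higher were Ptma (0.22), prothymosin alpha, a chromatin protein of growing cells, Rpl41 (0.22), Rps2 (0.23) and C1qbp (0.62), a mitochondrial matrix protein. Another 11 bear predicted-gene or pseudogene names, and Jchain (2.24) and Igkc (1.44), of plasma cells, had 33.8% and 23.2% of their counts in a single well each. Ptma, C1qbp and Igkc are named after their values were seen. Over all wells Ptma averaged 2287 CPM in large and 1397 CPM in small cells, a log2 difference of 0.77.

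Among lists with at least 8 members tested in both fits, medians lay nearer to 0 in low-cycling wells, except for the granulocyte and monocyte list. The nuclear respiratory chain had a median of 0.07 over 36 genes, against 0.29 over all wells, nucleotide synthesis 0.12 over 19 genes, against 0.51, and ribosome biogenesis -0.02 over 34 genes, against 0.11. Stem cell genes had a median of -0.11 over 14 genes, against -0.53, and quiescence-linked genes -0.33 over 12 genes, against -0.54. The granulocyte and monocyte list (10 genes) had 0.15, against 0.13. The cell cycle lists chose these wells, so their medians there, 0.18 for S phase and -0.09 for G2 and mitosis, are a description of the choice. Of the lists with fewer members tested in both, 6 lay farther from 0 in low-cycling wells, among them B lineage with -1.11 over 3 genes, against -0.84, and plasma cell with 1.28 over 2 genes, against 0.49. Over all genes tested there the median was 0.00.

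**Figure D5:**
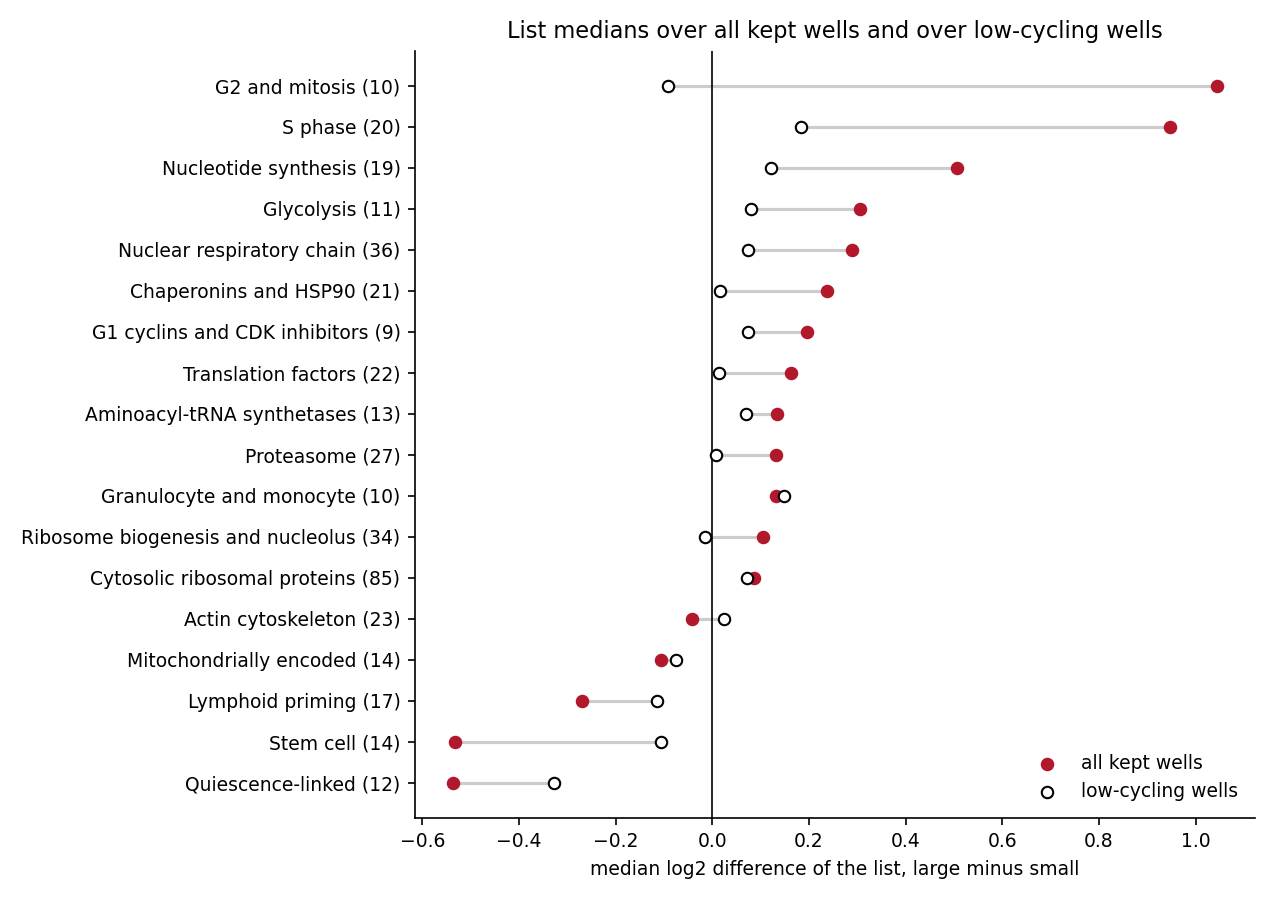
Median log2 difference of large minus small cells (x axis) for gene lists with at least 8 members tested in both fits (y axis, members in parentheses), over all kept wells (red) and over low-cycling wells (open), for the same genes. Each open point lies closer to 0 than its red point, except for the granulocyte and monocyte list, with 0.15 in low-cycling wells and 0.13 over all wells. The S phase and the G2 and mitosis lists helped to choose the low-cycling wells, so their open points describe that choice.

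Large and small cells of like total counts were compared by forming the FSC-A terciles within each tercile of total counts. Of 9031 genes tested, 317 (3.51%) passed in edgeR, 256 higher (2.83%) and 61 lower (0.675%). On the G2 and mitosis list 33 of 34 genes were higher, with a median of 1.07, and on the S phase list 5 of 26, with a median of 0.27. Of 12 granulocyte and monocyte genes 5 were higher: Ctsg (1.01), Mpo (0.77), Elane (1.63), Prtn3 (0.28) and Calr (0.38). Several lists of growth and state had few or no calls in this contrast: 2 of 24 nucleotide synthesis genes and 1 of 36 respiratory chain genes were higher, and 0 of 22 chaperonin and HSP90, 0 of 16 glycolysis, 0 of 45 ribosome biogenesis and 0 of 27 proteasome genes passed. Of 15 stem cell genes 0 passed, with a median of -0.14, and of 19 quiescence-linked genes 2 were lower, with a median of -0.29. Txnip (-0.33), Ccr9 (-0.84), Gimap5 (-0.88) and Cd74 (-0.64) were lower, and Hlf, at -0.09, did not pass.

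Along the 3 terciles, the middle cells' median FSC-A lay 37.9% ± 6.43 of the way from the small to the large median, and their total counts 29.8% ± 5.04 of the way (SD, n = 4). A linear trend passed for 1592 of 9135 genes (17.4%), 1017 upward with size (11.1%) and 575 downward (6.29%). Of the 1011 genes higher in large cells, 819 had a middle mean between the arms, and the median gene stood 26.9% of the way from the small to the large mean. For the 70 higher genes of the cell cycle lists the position was 7.01%, and for the 941 others 29.4%. For the 628 lower genes it was 41.7%. Hist1h2ap, for example, averaged 642 CPM in small, 594 in middle and 2853 CPM in large cells, while Atp5g1 averaged 87.3, 124 and 164 CPM and Txnip 458, 366 and 227 CPM. The higher and lower genes were chosen by the difference between large and small cells, which favours a middle mean between them. The same share over all tested genes is not given here, so these positions are a description.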

How the data were processed

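Single cells had been index sorted into 384-well plates and sequenced with CEL-seq2, per the labels' protocols. The deposited count tables hold whole-number counts per gene and well, with no normalization by the authors evident in the values, and the 4 plate tables name the same 383 wells. How reads were aligned, assigned to a strand and counted, and how the molecular tags of 6 bases were handled, is not given in the sources used here. A human build, GRCh38, stands in the submitters' processing notes although the gene identifiers are mouse, so no coordinates were taken from the files. Of 23215 gene identifiers 23156 had a symbol in the RefSeq table. The sorter's fluorescence and scatter intensity values were deposited on a linear scale, per the file headers, and values below 0 occur in fluorescence channels. FSC-A was recorded by the sorter to 3 significant digits, as deposited.

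Wells were joined to the sort records by barcode, and wells with at least 1000 counts and 500 genes were kept. Counts were summed per plate and tercile of FSC-A, filtered with filterByExpr, scaled with TMM and tested with edgeR 4.0.16 (R 4.3.3) with the plate as a block and an adjusted p threshold of 0.05. Differences of plate medians were tested with the exact sign-flip test over 4 plates. CPM are the summed counts of a gene scaled to a fixed total for the arm, and intervals for a count of 0 use 3 counts and cover counting error only. The plates block the sums by construction: the deviations of large and small sums of the same plate correlated at 0.20 to 0.39 over 6248 genes, against -0.26 to 0.01 for sums of different plates. Before use the test was run on counts simulated from its own model, which cannot show how well that model fits these plates. DESeq2 1.42.0 and limma 3.58.1 served as alternatives. Doublets were not called, and the wells with the highest ratio of FSC-A to FSC-H were left out in an alternative instead. That ratio was higher in large cells on 4 of 4 plates, with plate medians averaging 1.45, against 1.29 in small cells. Its Spearman's rho with FSC-A was 0.656 to 0.737 across the cells of a plate.

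Named genes are, outside the cell cycle lists, the 12 with the largest difference in each direction among those past the threshold with the same sign on each plate, the genes with the smallest p on each list (6 for S phase and for G2 and mitosis, 3 for the other cell cycle lists, up to 4 elsewhere), and the genes of the stained proteins. Fcgr3 and Slamf1 had too few counts to test, and some genes that the rule names are not reported here. Other list members named in the text were chosen after their values were seen. Members and lists were chosen with earlier results of these data known, so no list counts as independent evidence. The scaling by wells, the low-cycling checks, the terciles of FSC-H, the CD135 contrast and the ratio of FSC-A to FSC-H were added as alternatives after the data had been seen.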

Additional observations from a re-analysis of the deposited data

Results flagged for a closer look

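Of 145 log2 differences of large minus small cells checked for a plate far from the other 3, 11 were found, where chance gives about 5% of such checks. On plate 1 Eef1g, a translation elongation factor, had 0.083 (others 0.24 to 0.26), Calr 0.20 (others 0.59 to 0.65) and Rpl28 0.28 (others near 0.37). On plate 2 Kars, lysyl-tRNA synthetase, had -5.46e-05 (others 0.26 to 0.29), Cd9, a tetraspanin of the megakaryocyte list, had 1.17 (others -0.78 to -0.74) and mt-Rnr1, the small mitochondrial ribosomal RNA, had -0.43 (others -0.25 to -0.22). On plate 3 Tk1 had 2.09 (others 1.29 to 1.40), Impdh2 1.17 (others 0.40 to 0.52), Tcf4, a regulator of dendritic cells, -0.53 (others -0.31 to -0.28) and Jchain 0, with no count in either arm (others 1.02 to 1.14). On plate 4 Cyp51, of cholesterol synthesis, had 1.84 (others -0.09 to 0.20).

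The size difference was also compared between the CD135-high and the CD135-low cells of each plate, split at the plate's median, in 1 fit with the difference of the 2 size differences as the test. Of 7223 genes 15 (0.208%) passed in edgeR. MHC class II genes had a size difference near 0 among CD135-high cells and a negative one among CD135-low cells: H2-Aa had 0.21 and -1.86, 2.07 apart (edgeR adjusted p = 2.71e-05), Cd74 had -0.22 and -1.80, 1.58 apart (edgeR adjusted p = 0.00375), and H2-Ab1 had -0.04 and -1.18, 1.14 apart (edgeR adjusted p = 0.0434). This fit held all kept wells, also those rich in RNA of other cells. Without those wells Cd74 and H2-Aa did not pass in the first contrast, at -0.28 and -0.15. A single well held 6.66% of the counts of Cd74, 5.67% of those of H2-Aa and 4.63% of those of H2-Ab1. H2A histone names had a larger size difference among CD135-high cells, by 0.79 for Hist1h2ap (2.68 and 1.89), 0.85 for Hist1h2ae, 0.87 for Hist1h2ah, 0.90 for Hist1h2ac and for Gm11336, 0.91 for Hist1h2ag and 1.04 for Hist1h2an, and these names could share counts. Prc1, a spindle midzone protein, had 2.76 and 0.47, 2.29 apart (edgeR adjusted p = 0.0208). Mpo had a smaller size difference among CD135-high cells, 0.19 against 1.19, a difference of -0.999 (edgeR adjusted p = 0.0293), and Tal1, a transcription factor of stem and erythroid cells, had -0.84 against 0.36, a difference of -1.20 (edgeR adjusted p = 0.0408). Jchain (-2.91) and Ighg2c (-1.14), of plasma cells, had 33.8% and 26.2% of their counts in a single well each.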

How the results depend on the processing

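Under RLE scaling, no filter on low counts, limma on mean CPM, splits of FSC-A at the median or into quintiles, wells under 20% mitochondrial counts, terciles within each side of the median of CD135 or side scatter, terciles of FSC-H and without wells rich in RNA of other cells, 1248 to 1636 genes passed, near the main 1639. Fewer passed with no replicate block (621), DESeq2 (461), wells thinned to 2000 counts (418), terciles within total counts (317), low-cycling wells (22) and without the highest ratios of FSC-A to FSC-H (983), and 6714 passed per well. Leaving out a plate gave 1202 to 1433 genes. The linear trend passed for 741 genes with no replicate block. Among low-cycling cells 3 genes passed in the 150 wells with 0 counts of 6 cycle genes, 0 with no replicate block (207 at an unadjusted p under 0.05 in edgeR), and 11, 5, 6 and 15 without plates 1, 2, 3 and 4. The log2 ratio of total counts was 0.54 for the split at the median, 1.01 for quintiles, 0.31 in low-cycling wells and 0.64 without the highest ratios of FSC-A to FSC-H, and without a plate 0.75 to 0.79. That of genes per well was -0.013 after thinning. Of 139 named genes 119 passed, 22 lost the call without some plate and 0 turned sign there. Signs turned per well for Mxd4 (0.27), Srebf2 (0.18), Myl6 (0.48), Vasp (0.22), Ypel3 (0.057), Hlf (0.012), Ifitm1 (0.17), Ly6a (0.0100), Bcl11a (0.30), Ptprcap (0.34), Car2 (0.36), Plek (0.51), Srgn (0.49), Kit (0.43), Gata2 (0.40), Xbp1 (0.56), Tcf4 (0.42), Flt3 (0.49), H2-Ab1 (0.079), Ddx58 (0.034), Rpl4 (0.47), mt-Rnr2 (0.38), mt-Nd5 (0.41), mt-Rnr1 (0.49), mt-Nd4 (0.51) and Dach1 (0.64), where the median of all genes shifts by 0.70. In low-cycling wells they turned for Hist1h2aj (-0.045), Hist1h2ao (-0.42), Hist1h2an (-0.22), Gm11336 (-0.29), Hist1h2ag (-0.042), Pcna (-0.10), Lig1 (-0.016), Top2a (-0.28), Cdk1 (-0.10), Hist1h2ap (-0.21), Hist1h2ae (-0.13), Mxd4 (0.11), Dctpp1 (-0.047), Vasp (0.056), Ifitm1 (0.044), Ly6a (0.12) and H2-Ab1 (0.18). Pcna, Lig1, Top2a, Cdk1, Hist1h2ap and Hist1h2ae are on the lists that chose the low-cycling wells, so their values there describe that choice. Hist1h2aj, Hist1h2ao, Hist1h2an, Hist1h2ag and Gm11336 could share counts with those histone genes. Within terciles of total counts signs turned for Mxd4 (0.043) and Pf4 (-0.98), and without the highest scatter ratios for Elane (-0.16). Without wells rich in other RNA they turned for Hba-a2 (-0.53) and Jchain (-0.62), whose own counts helped to choose those wells. In limma on mean CPM the sign turned for Hba-a1 (-0.015). The cause of the other turns of sign was not tested. Genes with few counts per plate, such as Dach1 and Il7r, limit what can be seen at this depth.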
